A study of Mus musculus with 9 samples.

Results

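This set of 10 genes of Wnt signalling was followed in the hindgut of mouse embryos mutant for the endothelin receptor gene Ednrb: the ligands Wnt4, Wnt5a and Wnt11, the secreted inhibitors Sfrp1, Sfrp2 and Dkk2, the receptor Lgr5, its secreted partner Rspo3, and the response genes Axin2 and Lef1. They were chosen by name, and every probe set whose platform annotation names 1 of them and no other gene was taken, which gave 22 of the 45101 probe sets on the array. The series holds 9 Affymetrix MOE430 version 2 arrays of RNA from the dissected terminal colon, 3 for each genotype. Ednrb null carries the genotype label Ednrb -/- and is homozygous for a lacZ allele, EdnrB(lacZ/lacZ). Ednrb NCC null carries the label Ednrb-FLEX(NCC-/-) and is described as mutant for Ednrb in NCC cells, an abbreviation the labels leave unexplained. Wild type is labelled wt. The stage is embryonic day 14 in the sample labels, and 14.5 in the text of the series. The labels name no strain, no Cre driver for the NCC-restricted loss, and no number of embryos behind an array, so p-values measure only how far these 9 samples differ, and some of that may be technical.

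Wnt proteins are secreted signals that bind Frizzled receptors. In the canonical branch they stabilise beta-catenin, which enters the nucleus and activates target genes with factors of the TCF/LEF family. Other ligands, Wnt5a and Wnt11 among them, act mainly through beta-catenin-independent routes that orient cells and guide tissue elongation. In the developing gut the mesenchyme makes many of these ligands and their soluble inhibitors, while the canonical response maintains epithelial progenitors.

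Values are RMA intensities as deposited, turned to log2, so that a difference of 1 is a doubling. A probe set was called where its adjusted p (limma, Benjamini-Hochberg over all 45037 non-control probe sets) was under 0.05, and a gene was read by its brightest probe set. In Ednrb null the brightest probe set of Ednrb fell by 1.89 against wild type (adjusted p = 2.88e-05), as its label says. In Ednrb NCC null the 3 probe sets of Ednrb differed from wild type by 0.00 to 0.21 and none was called (adjusted p = 0.696 for the brightest), so the transcript level in whole tissue does not check that label. Arrays of the same group correlated across probe sets at Pearson r of 0.9932 to 0.9967 and arrays of different groups at 0.9881 to 0.9928. The tissue label was checked against marker lists, which had high signal but differed between genotypes. The mean of 17 gut epithelial genes was 10.21 in the Ednrb null arrays, 10.84 in the Ednrb NCC null arrays and 10.46 in wild type. Of the 17, 10 were called lower in Ednrb null than in Ednrb NCC null, beside 3.73% of all genes. That of 12 gut mesenchyme genes was 10.63 to 10.69 in Ednrb null, 10.37 to 10.53 in Ednrb NCC null and 10.63 to 10.67 in wild type. Visceral smooth muscle genes (10) had means of at most 11.29 in Ednrb null, 11.44 to 11.74 in Ednrb NCC null and 11.19 to 11.38 in wild type. The log2 3' to 5' ratio of the Actb control probe sets, which varies with RNA integrity and labelling, was 0.80 to 0.90 in Ednrb null, 1.03 to 1.40 in Ednrb NCC null and 1.08 to 1.32 in wild type, so Ednrb null did not overlap either group. In bulk tissue, fewer cells of a type and less RNA per cell cannot be told apart.

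Read by their brightest probe sets, 0 of the 10 genes were called in any of the 3 comparisons. Unadjusted limma p-values under 0.05 were found for 3 of them in Ednrb null and for 2 in Ednrb NCC null, each set against wild type, and for 2 between the mutants, beside 18.5%, 18.8% and 18.9% of all 18193 genes. By adjusted p, 4.79% of all genes were called in Ednrb null (2.51% higher and 2.29% lower) and 3.9% in Ednrb NCC null (2.92% higher and 0.984% lower). Between the mutants 5.29% of all genes were called, 1.56% higher and 3.73% lower in Ednrb null.

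At the level of single probe sets, 1 of the 22 rose and 1 fell in Ednrb null, where 5.03% of all probe sets were called (2.51% higher and 2.52% lower). In Ednrb NCC null 1 of the 22 fell, where 3.58% of all were called (2.06% higher and 1.51% lower). Between the mutants 1 of the 22 was higher in Ednrb null, where 4.41% of all were called (1.84% higher and 2.57% lower). These called probe sets belong to Wnt5a and Sfrp1. In Ednrb null the arrays lay all above wild type for 3 of the 22 (12.7% of all probe sets) and all below for 2 (7.93%). In Ednrb NCC null they lay all above wild type for 0 of the 22 (11.6%). They lay all below wild type for 2 (7.76%), and for 0 of the 10 brightest probe sets (6.3% of all genes). Between the mutants the Ednrb null arrays lay all above for 2 of the 22 (12%) and all below for 1 (9.28%). The median log2 change of the 10 genes was -0.19 for Ednrb null and -0.16 for Ednrb NCC null, each set against wild type, and 0.03 between the mutants, beside 0.04, 0.02 and 0.01 over all genes.

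**Figure D1:**
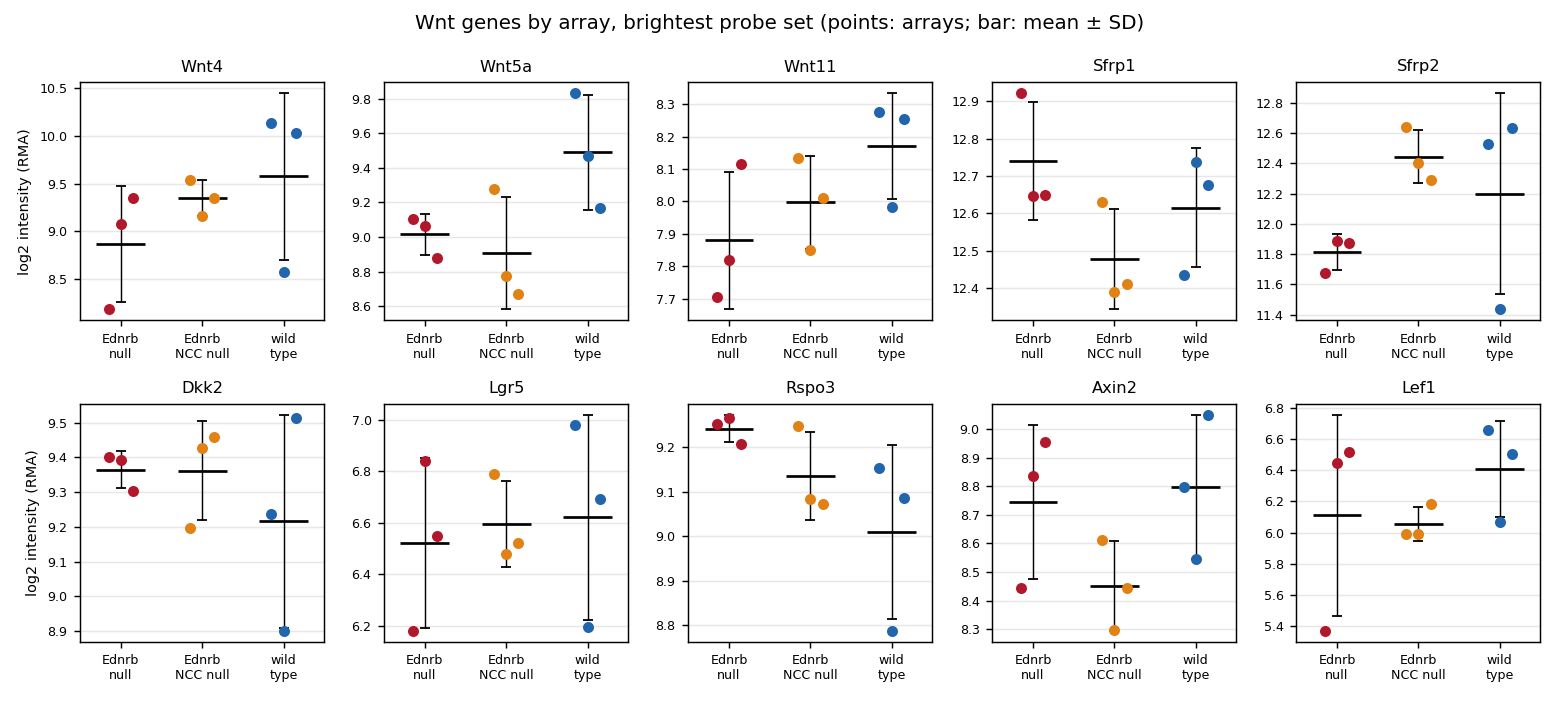
Log2 RMA intensity (y axis) of the brightest probe set of each of the 10 Wnt genes by genotype (x axis, Ednrb null left and wild type right). Points are arrays and bars the mean ± SD of 3 arrays, with a y axis of its own for each gene. The 3 wild type points lie widest apart in Wnt4, from 8.57 to 10.13, while Dkk2 stays between 8.90 and 9.51 in every array.

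**Figure D2:**
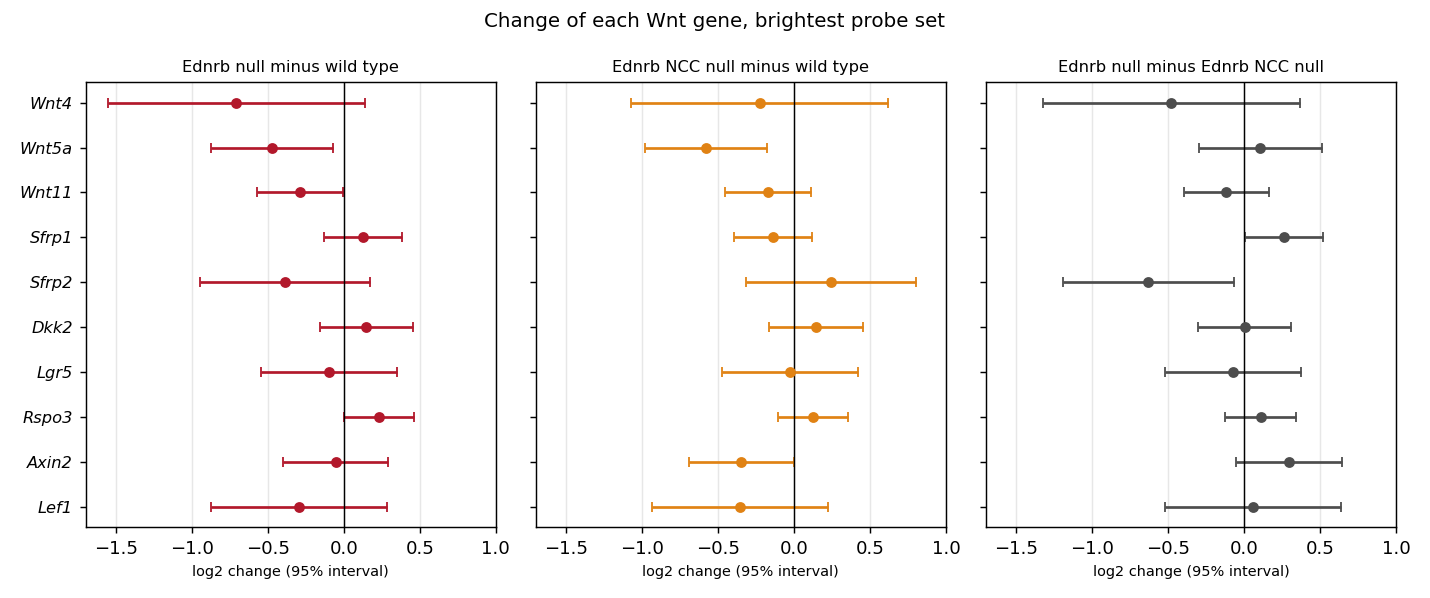
Log2 change of the brightest probe set of each Wnt gene (x axis) with its 95% interval, in 3 panels, 1 for each comparison named above the panel. Points left of 0 are lower in the group named first. Wnt5a lies left of 0 against wild type in both mutants, at -0.47 and -0.58, and the intervals of Wnt4 are the widest.

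Among the ligands, Wnt5a, a mesenchymal signal needed for the outgrowth of the gut tube, had lower means in both mutants at all 4 of its probe sets, and 1 of the 4 passed the test in each mutant. That probe set, 1448818, had log2 intensities of 7.02, 6.96 and 7.12 in Ednrb null 29, 37 and 41 and of 6.68, 7.13 and 6.87 in Ednrb NCC null 2, 5 and 6, against 7.67, 7.68 and 7.32 in wild type 1B, 1C and 1D. Every mutant array lay below every wild type array. Against wild type it fell by 0.52 in Ednrb null (SE 0.13, adjusted p = 0.0464, 1.43-fold) and by 0.66 in Ednrb NCC null (SE 0.13, adjusted p = 0.0204, 1.58-fold). Both comparisons use the same 3 wild type arrays, so their likeness is not independent evidence. Between the mutants the difference was 0.14, with a 95% interval of -0.15 to 0.43 and adjusted p = 0.666.

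The brightest probe set of Wnt5a, 1436791, read 9.10, 9.06 and 8.88 in Ednrb null and 9.28, 8.77 and 8.67 in Ednrb NCC null, against 9.83, 9.47 and 9.17 in wild type. All Ednrb null arrays lay below wild type, and Ednrb NCC null 2 was above wild type 1D. Its differences were -0.47 (SE 0.18, adjusted p = 0.199) for Ednrb null and -0.58 (SE 0.18, adjusted p = 0.119) for Ednrb NCC null. The dim probe set 1456976 gave -0.34 and -0.49 (adjusted p = 0.316 and 0.131) and the probe set 1437673 gave -0.16 and -0.19 (adjusted p = 0.661 and 0.593), in the same order. The calls of probe set 1448818 were near the threshold and depended on the processing. For Ednrb null the call was lost without any single array of that group (adjusted p = 0.14, 0.151 and 0.0802 without 29, 37 and 41), without wild type 1B or 1C (0.175 and 0.119) or without Ednrb NCC null 6 (0.0713), while the change stayed between -0.64 and -0.46. For Ednrb NCC null it was lost without Ednrb NCC null 2 or 6 or wild type 1B or 1C (adjusted p = 0.0633, 0.0794, 0.0907 and 0.0652), with changes of -0.78 to -0.56 over all arrays left out in turn. Quantile normalization, median centring and log2 of intensity plus 16 also ended the Ednrb null call (adjusted p = 0.0515, 0.051 and 0.0532), as did the Actb ratio as a covariate (-0.70, adjusted p = 0.185). The mean of the 4 probe sets of Wnt5a fell by 0.48 in Ednrb NCC null (adjusted p = 0.0278), and in Ednrb null that mean gave -0.37 (adjusted p = 0.0693). The mesenchyme list mean, given above, was below every wild type array in Ednrb NCC null and at 10.63 to 10.69, against 10.63 to 10.67, in Ednrb null and wild type. Its part in the Wnt5a values was not tested.

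Over the 9 arrays, the genes most like Wnt5a by Pearson correlation of brightest probe sets were Dipk2a (r = 0.954) and Nr2f1 (r = 0.939), a nuclear receptor, among 837 candidate genes. For Sfrp1 they were Zfhx4 (r = 0.811) and AA388235 (r = 0.804). These arrays share the 3 groups, and the values are descriptive.

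**Figure D3:**
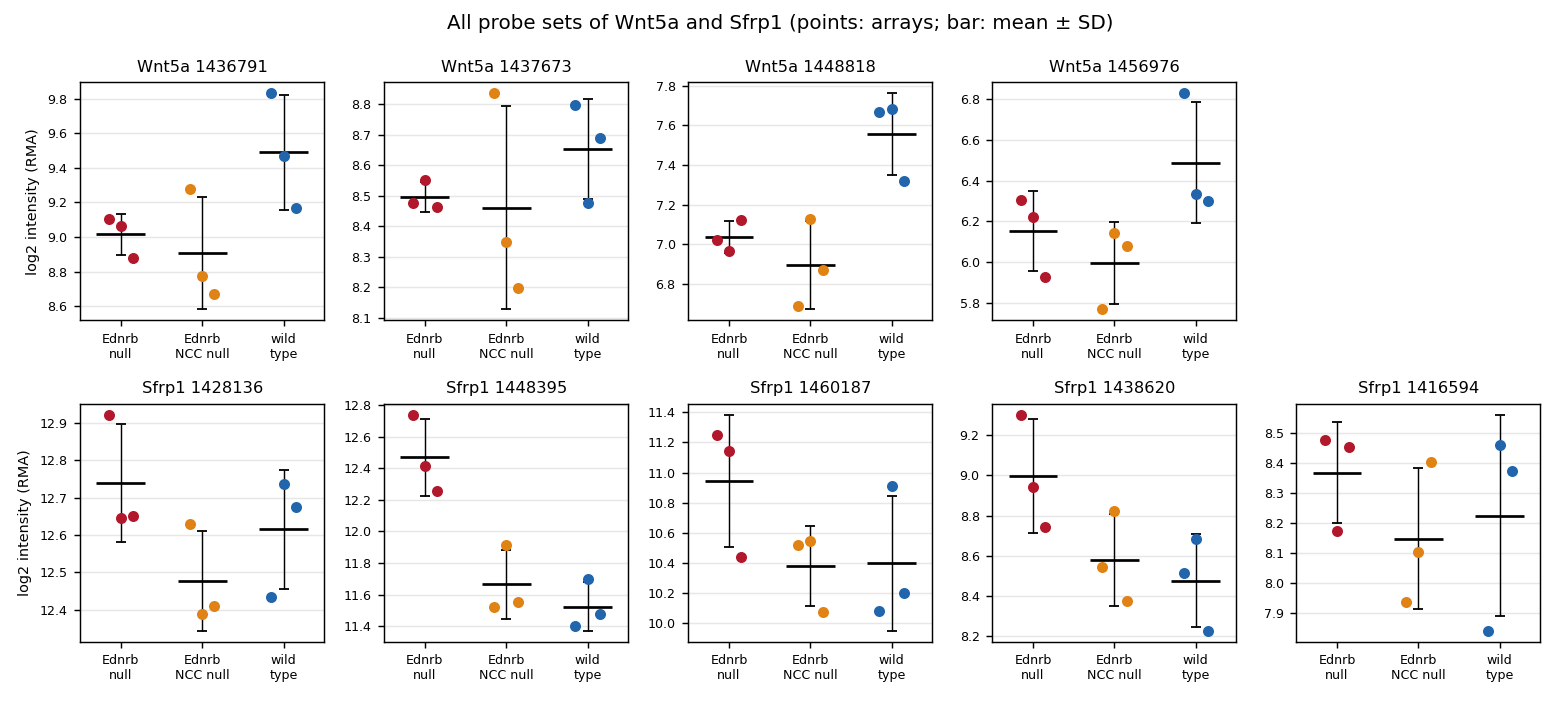
Log2 RMA intensity (y axis) of the 4 probe sets of Wnt5a (upper row) and the 5 of Sfrp1 (lower row) by genotype (x axis, Ednrb null left and wild type right), with arrays as points and the mean ± SD of 3 arrays as bars. The mutant arrays of Wnt5a 1448818 lie between 6.68 and 7.13, below the wild type arrays, and the Ednrb null arrays of Sfrp1 1448395 lie between 12.26 and 12.74, above all others.

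Of the secreted inhibitors, Sfrp1, a Frizzled-related protein that binds Wnt ligands outside the cell, had higher means in Ednrb null than in either other group at all 5 of its probe sets, and 1 of the 5 was called. Probe set 1448395 read 12.74, 12.41 and 12.26 in the Ednrb null arrays, 11.52, 11.92 and 11.56 in the Ednrb NCC null arrays, and 11.40, 11.70 and 11.47 in wild type. No Ednrb null array overlapped either other group. It rose by 0.95 against wild type (SE 0.15, adjusted p = 0.00325, 1.93-fold) and was 0.81 higher than in Ednrb NCC null (SE 0.15, adjusted p = 0.0111, 1.75-fold). For Ednrb NCC null relative to wild type it gave 0.14 (95% interval -0.18 to 0.46, adjusted p = 0.709).

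The brightest probe set of Sfrp1, 1428136, near the top of the intensity range, read 12.92, 12.65 and 12.65 in the Ednrb null arrays, 12.63, 12.39 and 12.41 in the Ednrb NCC null arrays, and 12.43, 12.74 and 12.68 in wild type. Here Ednrb null overlapped wild type, with a difference of 0.12 (95% interval -0.13 to 0.38, adjusted p = 0.654). The probe sets 1460187, 1438620 and 1416594 gave 0.55, 0.52 and 0.14 for Ednrb null against wild type (adjusted p = 0.293, 0.118 and 0.743). For 1438620 the Ednrb null arrays lay all above wild type, as did those of 12.7% of all probe sets. The platform annotation gives no source sequence for 1438620. Between the mutants the 4 probe sets that were not called gave 0.22 to 0.57, beside the lower epithelial and smooth muscle lists of Ednrb null, whose part was not tested. The platform annotation credits 1 source sequence to 3 of the 5 (1448395, 1460187 and 1416594), so probe sets of a shared source differed in size too. The change of probe set 1448395 against wild type stayed called with any single array left out (0.81 to 1.05). Against Ednrb NCC null its call was lost without Ednrb NCC null 6 (0.75, adjusted p = 0.0552). With the Actb ratio as a covariate, which moves with Ednrb null, the changes were 0.66 and 0.49 and neither was called (adjusted p = 0.24 and 0.45). Under that covariate the calls over all 45037 probe sets numbered 539 against wild type and 283 between the mutants, beside 2265 and 1984 without it.

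Lists of cartilage and of positional markers had higher means in Ednrb null, the group in which 1 of the 5 probe sets of Sfrp1 was called higher. The mean of 8 cartilage genes was 6.87 to 7.02 in Ednrb null, 6.63 to 6.70 in Ednrb NCC null and 6.62 to 6.71 in wild type. The median log2 change of these 8 genes against wild type was 0.12, and 2 were called higher, beside 2.51% of all genes. They were the collagen gene Col9a1, by 0.73 (adjusted p = 0.0263), and Hapln1, a link protein of hyaluronan matrix, by 1.03 (adjusted p = 0.00327). In the same list Sox9 averaged 8.66 in Ednrb null and 8.69 in wild type, and Comp read 5.30 to 5.64 and 5.44 to 5.71. Matn1, a matrilin of cartilage, was near the array's lowest values, at 3.18 to 3.46. Of 9 genes of position along the hindgut, Hoxd12 rose by 0.56 (adjusted p = 0.047), and the list mean was 8.47 to 8.65 in Ednrb null, 8.20 to 8.35 in Ednrb NCC null and 8.12 to 8.45 in wild type. Their part in the Sfrp1 result was not tested.

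Sfrp2, a close relative of Sfrp1 made by mesenchyme, and the ligand Wnt4, known for its part in kidney tubule formation, varied widely between arrays of wild type. Such a spread was not theirs alone among Wnt pathway genes. Dkk1 read 9.89, 6.82 and 9.87 in wild type 1B, 1C and 1D, and Apcdd1 10.21, 8.63 and 10.10. Both were picked after their values were seen. Sfrp2 read 11.67, 11.89 and 11.87 in Ednrb null and 12.64, 12.40 and 12.29 in Ednrb NCC null, against 12.53, 11.44 and 12.64 in wild type 1B, 1C and 1D. The Ednrb null arrays lay below all Ednrb NCC null arrays, as did those of 12.4% of all genes, and wild type 1C was the lowest of the 9. Its differences were -0.39 for Ednrb null against wild type (SE 0.25, adjusted p = 0.492), 0.24 for Ednrb NCC null against wild type (SE 0.25, adjusted p = 0.712) and -0.63 between the mutants (SE 0.25, adjusted p = 0.226).

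Wnt4 shared its lowest arrays with Sfrp2. Its brightest probe set read 8.18, 9.07 and 9.35 in Ednrb null 29, 37 and 41 and 9.53, 9.16 and 9.35 in Ednrb NCC null, against 10.13, 8.57 and 10.02 in wild type 1B, 1C and 1D. Ednrb null 29 and wild type 1C were the lowest arrays, and the 3 groups overlapped. Against wild type the difference was -0.71 in Ednrb null (SE 0.38, 95% interval -1.56 to 0.14, adjusted p = 0.389) and -0.23 in Ednrb NCC null (SE 0.38, adjusted p = 0.84). The other probe set of Wnt4 gave -0.67 and -0.26 (adjusted p = 0.346 and 0.78).

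The differences of both genes from wild type rested on single arrays. Without wild type 1C, with 2 wild type arrays left, Sfrp2 was called in Ednrb null against wild type (log2 change -0.77, adjusted p = 0.0054) and against Ednrb NCC null (-0.63, adjusted p = 0.0102), and Wnt4 was called in Ednrb null against wild type (-1.21, adjusted p = 0.0286). Other arrays moved the values the other way. Wnt4 gave -0.36 when Ednrb null 29 was left out and -0.43 without wild type 1B (adjusted p = 0.743 and 0.744), and Sfrp2 gave -0.22 without wild type 1B and -0.17 without wild type 1D (adjusted p = 0.811 and 0.8). For Ednrb NCC null the sign of Sfrp2 turned without wild type 1C (-0.14) and that of Wnt4 without wild type 1B (0.05). With only the mutant arrays in the fit, Sfrp2 passed between them (-0.63, adjusted p = 0.019). Its difference between the mutants was -0.71 to -0.54 with each array left out in turn. Leaving out wild type 1C changed the spread estimate that the groups share, and not this difference.

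Marker lists were set beside these arrays. The mean of 8 skeletal muscle genes was 6.04 in Ednrb null 29 and 6.12 in wild type 1C, but also 6.14 in Ednrb null 37, against 6.48 to 7.18 in the other 6 arrays. Within that list Actc1, the cardiac alpha-actin of embryonic muscle, was 8.17 to 8.52 in Ednrb null, 9.73 to 10.73 in Ednrb NCC null and 9.88, 8.32 and 10.50 in wild type 1B, 1C and 1D. Myog, Myh3 and Acta1 were lower in Ednrb null 29 and 37 and wild type 1C than in every other array, while Tnnt3 and Tnni1 were not. The myogenic factors Myod1 and Myf5 were dim in every array, at 5.25 to 6.08 and 4.27 to 5.13.

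The mesothelial and positional lists did not follow the arrays as wholes. Of 10 mesothelial genes the mean was 8.10 in Ednrb null 29 and 7.95 in wild type 1C, against 6.80 in wild type 1B and 8.07 in wild type 1D. Its member Krt14, a keratin also of stratified epithelium, was lowest in Ednrb null 29 (7.31) and wild type 1C (6.81), while Upk3b, a uroplakin gene, was 9.76 in wild type 1C, against 6.04 and 9.30 in 1B and 1D, and Bnc1 9.55, against 6.71 and 8.94. Of 9 positional genes the mean was 8.47 in Ednrb null 29 and 8.12 in wild type 1C. Its member Hoxc10 was lowest in the same arrays (7.30 and 6.70), while Hoxd13, the most posterior gene of its cluster, was highest there (12.46 and 12.30). These genes were picked after their values were seen. The part of the listed tissues in the levels of Wnt4 and Sfrp2 was not tested.

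**Figure D4:**
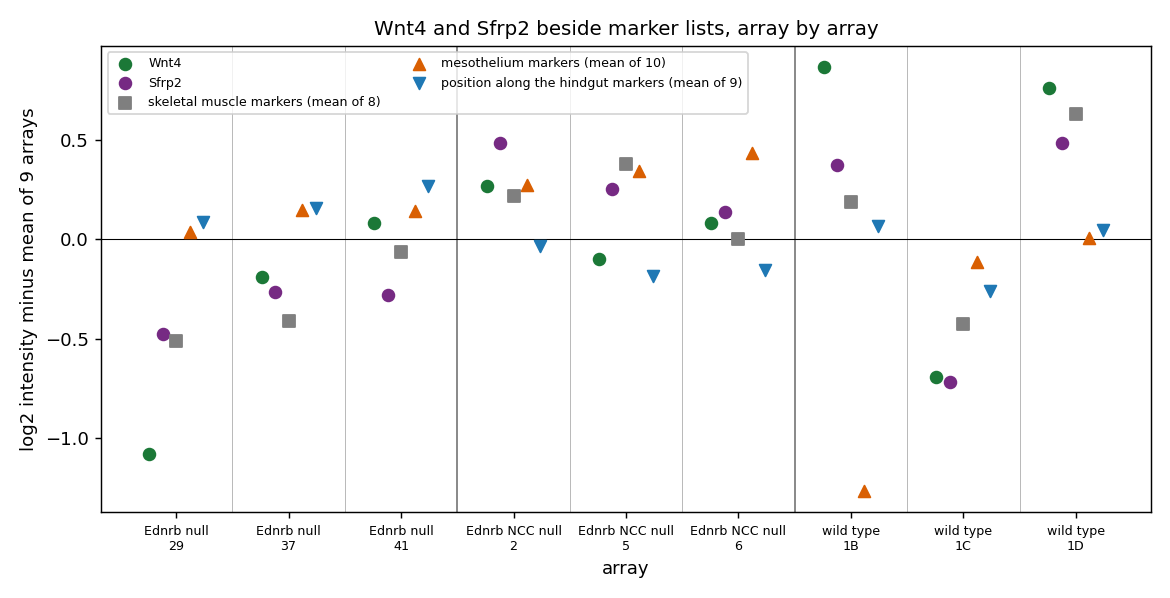
Log2 intensity minus the mean of the 9 arrays (y axis) of Wnt4, Sfrp2 and the means of 8 skeletal muscle, 10 mesothelial and 9 positional markers in each array (x axis), with Ednrb null left, Ednrb NCC null in the middle and wild type right. Arrays of a group have no order. Wnt4, Sfrp2 and the muscle list lie below 0 in Ednrb null 29 and 37 and in wild type 1C, and the mesothelial list is low in wild type 1B, at a mean of 6.80.

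The promoter windows of Wnt4 and Sfrp2 are shown because both genes were lowest in Ednrb null 29 and wild type 1C. That of Wnt11 is shown because it holds the core letters of the TCF/LEF site. Each runs from 250 bases before to 50 after a RefSeq transcript start in GRCm38.p6, on the plus strand, at chr4:137277385-137277684 for Wnt4, chr3:83766071-83766370 for Sfrp2 and chr7:98834862-98835161 for Wnt11. The lone capital marks the first transcribed base, and a run of capitals marks CTTTGA or its reverse complement TCAAAG.
Wnt4: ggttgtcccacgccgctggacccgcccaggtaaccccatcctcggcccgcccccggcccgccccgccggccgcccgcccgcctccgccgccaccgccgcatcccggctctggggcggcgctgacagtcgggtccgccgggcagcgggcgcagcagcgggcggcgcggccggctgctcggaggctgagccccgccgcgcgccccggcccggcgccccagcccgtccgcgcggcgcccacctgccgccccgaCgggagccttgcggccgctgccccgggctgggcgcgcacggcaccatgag
Sfrp2: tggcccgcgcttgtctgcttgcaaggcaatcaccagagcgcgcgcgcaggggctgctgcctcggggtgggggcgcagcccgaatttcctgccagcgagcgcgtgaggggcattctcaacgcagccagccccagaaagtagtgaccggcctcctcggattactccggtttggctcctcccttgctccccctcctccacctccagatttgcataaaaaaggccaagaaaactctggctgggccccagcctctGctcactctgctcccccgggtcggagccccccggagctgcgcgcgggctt
Wnt11: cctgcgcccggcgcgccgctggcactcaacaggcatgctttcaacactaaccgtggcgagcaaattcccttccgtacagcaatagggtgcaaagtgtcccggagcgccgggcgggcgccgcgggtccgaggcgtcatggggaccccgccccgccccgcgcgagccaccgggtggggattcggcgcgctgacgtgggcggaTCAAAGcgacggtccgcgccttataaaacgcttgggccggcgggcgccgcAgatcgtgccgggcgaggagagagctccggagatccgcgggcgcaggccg

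RefSeq windows were matched by symbol for 6 of the 10 genes, 10 windows in all. The core CTTTGA, searched on both strands, was in 2 of these 10, at the first start of Wnt11 and at the most downstream start of Lef1, and in 5257 of all 32851 windows of the same length, about 16%. Axin2, whose transcription is a common readout of the canonical pathway, has no match in its window. A match describes letters and not a bound site, and no match speaks only for these 300 bases. The Wnt4 window is rich in G and C (84.3%, against 53.8% over all windows).

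Wnt11, the third ligand, read 7.71, 7.82 and 8.12 in Ednrb null and 8.13, 7.85 and 8.01 in Ednrb NCC null, against 8.27, 7.98 and 8.25 in wild type. The ranges overlapped in every pairing, and the spread over the 9 arrays was 0.57. Its difference from wild type was -0.29 in Ednrb null (SE 0.13, 95% interval -0.57 to -0.01, adjusted p = 0.272) and -0.17 in Ednrb NCC null (SE 0.13, adjusted p = 0.572).

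Dkk2, which blocks the coreceptor Lrp6, and Rspo3, a secreted amplifier of Wnt signals, were the steadiest genes of the set together with Sfrp1's brightest probe set and Wnt11, each with 0.48 to 0.61 between its highest and lowest array. Dkk2 read 9.40, 9.39 and 9.30 in Ednrb null and 9.20, 9.43 and 9.46 in Ednrb NCC null, against 9.24, 8.90 and 9.51 in wild type. Its 95% intervals were -0.16 to 0.46 for Ednrb null and -0.16 to 0.45 for Ednrb NCC null, each relative to wild type, and -0.30 to 0.31 between the mutants (adjusted p = 0.654, 0.681 and 0.995).

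Rspo3 read 9.25, 9.27 and 9.21 in Ednrb null and 9.25, 9.08 and 9.07 in Ednrb NCC null, against 9.15, 8.79 and 9.09 in wild type. All Ednrb null arrays lay above wild type, as did 14.4% of all genes, and Wnt5a was the only member gene with all 3 below, as were 8.19% of all genes. The difference of Rspo3 was 0.23 (SE 0.11, adjusted p = 0.287) in Ednrb null and 0.13 (SE 0.11, adjusted p = 0.63) in Ednrb NCC null. Lgr5, a receptor for R-spondins and marker of intestinal stem cells, was dim at both probe sets, with 5.06 to 6.98 as the whole range over arrays and probe sets. Its brighter probe set read 6.18, 6.84 and 6.55 in Ednrb null and 6.79, 6.48 and 6.52 in Ednrb NCC null, against 6.98, 6.19 and 6.69 in wild type, and the changes against wild type were -0.10 and -0.03 (SE 0.20, adjusted p = 0.864 and 0.97), with a sign that turned when single arrays were left out (0.08 and 0.15 without wild type 1B).

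The response genes gave no call. Axin2, a target that feeds back on the pathway, read 8.44, 8.84 and 8.95 in Ednrb null and 8.61, 8.30 and 8.44 in Ednrb NCC null, against 8.80, 8.55 and 9.05 in wild type. The groups overlapped, with differences of -0.05 in Ednrb null (95% interval -0.40 to 0.29, adjusted p = 0.911) and -0.35 in Ednrb NCC null (SE 0.16, unadjusted p = 0.0496 in limma, adjusted p = 0.293). Lef1, a transcription factor of the TCF/LEF family, read 5.37, 6.45 and 6.52 in Ednrb null and 5.99, 5.99 and 6.18 in Ednrb NCC null, against 6.66, 6.07 and 6.50 in wild type. Ednrb null 29 was the lowest array again. The differences from wild type were -0.30 and -0.35 (SE 0.26, adjusted p = 0.632 and 0.574), and the first turned to 0.07 without Ednrb null 29. The difference of Axin2 in Ednrb null likewise turned to 0.10 without Ednrb null 29 and to 0.07 without wild type 1D. The second probe sets of Axin2 and Lef1 averaged 4.06 and 3.60, where RMA values carry little signal above background, so they bear little weight.

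Beyond the 10 genes, 90 further Wnt pathway genes were listed and 87 measured. In Ednrb null 1 of the 87 rose, 4 fell and 82 did not pass (median -0.05, beside 0.04 over all genes, of which 2.51% rose and 2.29% fell). In Ednrb NCC null 2 fell and 85 did not pass (median -0.11, beside 0.02 over all genes, of which 0.984% fell). Between the mutants 2 were higher and 1 lower in Ednrb null (median 0.06, beside 0.01 over all genes, of which 1.56% were higher and 3.73% lower). None of the 16 other ligands, the 3 genes of ligand secretion or the 18 of intracellular transduction passed in any comparison, and the smallest adjusted p among them was 0.0688, for the scaffold gene Apc at -0.36 in Ednrb NCC null. Next to it Prickle1, a planar polarity gene, gave 0.32 in Ednrb null (adjusted p = 0.0753). The ligand genes with the smallest p-values were Wnt9a (0.20 in Ednrb NCC null, adjusted p = 0.209) and Wnt8b (0.38 between the mutants, adjusted p = 0.211). Wls, which carries Wnt proteins to the cell surface, gave 0.26 between the mutants (adjusted p = 0.246) and Notum, which inactivates them, -0.42 in Ednrb NCC null (adjusted p = 0.346). The receptor gene Lgr4 gave -0.23 between the mutants (adjusted p = 0.278) and the inhibitor gene Dkk3 -0.34 in Ednrb NCC null (adjusted p = 0.177).

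Among the 87, Rspo2, a homologue of Rspo3, had the largest called change against wild type. Rspo2 read 6.48, 6.44 and 6.50 in Ednrb null and 7.33, 7.50 and 7.71 in Ednrb NCC null, against 8.07, 7.48 and 7.93 in wild type. Ednrb null lay below every other array. It fell by 1.35 against wild type (SE 0.14, adjusted p = 0.000282, 2.55-fold) and was 1.04 lower than in Ednrb NCC null (log2 change -1.04, SE 0.14, adjusted p = 0.0033). Its other probe set read 0.10 and -0.09 in these comparisons (adjusted p = 0.715 and 0.747).

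Frzb, a Frizzled-related inhibitor of the same family as Sfrp1, also known from cartilage, read 9.55, 9.28 and 9.48 in Ednrb null and 8.62, 8.30 and 8.31 in Ednrb NCC null, against 8.61, 8.92 and 8.58 in wild type. It rose by 0.73 against wild type (SE 0.13, adjusted p = 0.00614) and was 1.02 higher than in Ednrb NCC null (SE 0.13, adjusted p = 0.00151). Its other probe set gave 0.90 and 1.34 (adjusted p = 0.006 and 0.00102). In Ednrb null Frzb and 1 probe set of Sfrp1 were above the other groups, as was the mean of the cartilage markers given above, whose part was not tested.

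Ccnd1, which encodes cyclin D1, was lower in both mutants. It averaged 10.75 ± 0.12 in Ednrb null arrays and 10.69 ± 0.03 in Ednrb NCC null arrays, against 11.37 ± 0.21 in wild type (SD, n = 3 each), and fell by 0.61 (adjusted p = 0.00832) and 0.67 (adjusted p = 0.00797). Its 2 other probe sets fell by 0.84 and 0.51 in Ednrb NCC null (adjusted p = 0.0149 and 0.0105) and gave -0.38 and -0.24 in Ednrb null (adjusted p = 0.227 and 0.173). Vangl1, a planar cell polarity protein, fell by 0.46 in Ednrb null (adjusted p = 0.0142) and by 0.47 in Ednrb NCC null (adjusted p = 0.0175). The Vangl1 calls were lost without Ednrb null 29 for Ednrb null (adjusted p = 0.0692) and without Ednrb NCC null 6 for Ednrb NCC null (adjusted p = 0.081). With the probe sets of Vangl1 averaged, the change in Ednrb NCC null was -0.28 and its call was lost (adjusted p = 0.0541), while that in Ednrb null stayed called. Both mutants were again compared with the same wild type arrays. Genes of enteric neural crest and neurons (9 of 12 measured) had lower list means in the same groups. The means were 6.36 to 6.82 in Ednrb null and 6.57 to 6.74 in Ednrb NCC null, against 7.49 to 8.41 in wild type. Of the 9 genes, 6 and 4 were called lower, beside 2.29% and 0.984% of all genes. Uchl1 of that list overlapped wild type in Ednrb null, at 7.55 to 8.24 against 7.46 to 8.35. The part of the listed genes in the levels of Ccnd1, Vangl1 and Wnt5a was not tested.

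The receptor gene Fzd6 fell by 0.62 in Ednrb null against wild type (SE 0.12, adjusted p = 0.0139), a call lost without Ednrb null 29, wild type 1B or wild type 1D (adjusted p = 0.0648, 0.0636 and 0.0511), and its dim other probe sets gave -0.12 and -0.04. Tnfrsf19, a receptor of the tumour necrosis factor family and Wnt target, was 1.01 higher in Ednrb null than in Ednrb NCC null (SE 0.19, adjusted p = 0.015). That call was lost without Ednrb null 37 or 41 or Ednrb NCC null 5 or 6 (adjusted p = 0.0518, 0.0625, 0.0691 and 0.0685).

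When the Actb ratio was a covariate, Rspo2 stayed called against wild type and Frzb between the mutants. Other calls of Ednrb null against wild type were lost with changes of similar size. Frzb then gave 0.86 (adjusted p = 0.0819), Ccnd1 -0.67 (0.15), Vangl1 -0.53 (0.164) and Fzd6 -0.51 (0.393), beside 0.73, -0.61, -0.46 and -0.62 without the covariate. Between the mutants Rspo2 gave -0.92 (0.156) and Tnfrsf19 1.48 (0.0501), and Tnfrsf19 fell by 0.77 in Ednrb NCC null against wild type (adjusted p = 0.0345).

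**Figure D5:**
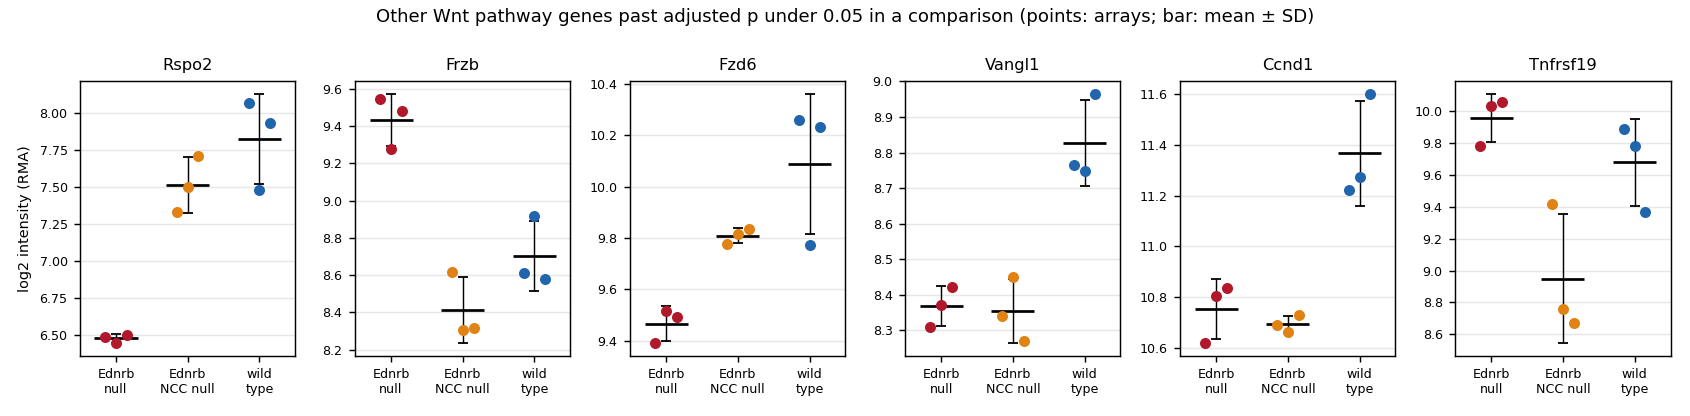
Log2 RMA intensity (y axis) of the 6 other Wnt pathway genes that passed in at least 1 comparison, by genotype (x axis, Ednrb null left and wild type right), with arrays as points and the mean ± SD of 3 arrays as bars. The 3 Ednrb null arrays of Rspo2 lie between 6.44 and 6.50, below all others, and those of Frzb between 9.28 and 9.55, above all others.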

How the data were processed

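The authors deposited an intensity for each probe set on each array, processed by RMA according to the submitters' processing notes, whose version is not given in the sources used here. This method removes background, equalises the distribution of the arrays and summarises the probes of a set, and it shrinks differences of dim probe sets. The deposited intensity was linear, from 5.69 to 61637, and was taken to log2 here with no pseudocount and no filter. Of 45101 probe sets, 64 were controls, 34945 named 1 gene in the platform table, 932 named several and 9160 none.

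A mean per genotype was estimated in 1 model of all 9 arrays and 45037 probe sets (limma 3.58.1, lmFit and eBayes, R 4.3.3). Tests were 2-sided with Benjamini-Hochberg adjustment and a threshold of 0.05, and the code was tested on simulated data. Those data had independent noise, and recovery was required only of changes larger than any group difference given here. Named genes are the 10 members, every other pathway gene called in a comparison, and the 2 of each pathway list with the smallest p. Dkk1 and Apcdd1 were added for their spread in wild type. For members with a called probe set, the 2 most correlated genes (mean log2 of at least 7, range of at least 1) were named too. Members, lists and rules were chosen with earlier results of these data known.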

Additional observations from a re-analysis of the deposited data

How the results depend on the processing

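Of 1014 recomputed values of single genes and probe sets, 926 kept direction and side of the threshold, 36 lost a call, 13 gained one, 39 turned sign with no call on either side and 0 called values reversed. Counts of calls moved as follows, and except where fewer samples or probe sets entered the fit, the cause was not tested. Of the member probe sets called in Ednrb null against wild type (2), 1 was left with quantile normalization, with arrays centred on their medians, with log2 of intensity plus 16 and with only the compared groups in the fit, and 0 when the Actb ratio was a covariate. Of the 5 other pathway genes called there, 1 was left with that covariate. For Ednrb NCC null against wild type, the 1 member probe set became 0 with only the compared groups and 2 with array weights, the 0 member genes became 1 (Wnt5a) with array weights and 1 (Wnt5a) when a gene's probe sets were averaged, and the 2 pathway genes became 4 with array weights and 6 at an adjusted p under 0.10. Between the mutants, the 1 member probe set became 2 with only the compared groups and 0 with the covariate, the 0 member genes became 1 (Sfrp2) with only the compared groups, and the 3 pathway genes became 6 with array weights, 1 with the covariate and 5 at an adjusted p under 0.10. With each array left out in turn, counts of member probe sets, member genes and pathway genes ranged over 1 to 4, 0 to 2 and 3 to 6 for Ednrb null against wild type, over 0 to 1, 0 to 1 and 1 to 5 for Ednrb NCC null, and over 0 to 2, 0 to 1 and 2 to 4 between the mutants. The highest member counts for Ednrb null came without wild type 1C. Leaving out the dimmest 40% of probe sets, fitting only brightest probe sets, and moderating with a trend moved none of these counts by over 1.5 times. No paired analysis was possible because the groups share no replicate numbers. Only 3 arrays a group limit the precision, and RMA values near 4 carry little signal above background.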

Other observations

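Wnt4 and Sfrp2 had no called probe set, and their closest genes were looked up after their values were seen. Among 837 candidates, brightest probe sets of Esr1, the estrogen receptor alpha gene, and Cd83 correlated with Wnt4 over the 9 arrays at Pearson r of 0.986 and 0.972. For Sfrp2 the highest were Ntrk3, a neurotrophin receptor gene (r = 0.979), and Eln, the elastin gene (r = 0.966). All points share the same arrays, with wild type 1C and Ednrb null 29 at the low end for Wnt4.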
